A study of Mus musculus with 19 samples.

Results

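The 10 genes described here make, export or inactivate prostaglandins and thromboxane, and were taken as the rows with the symbols Ptgs1, Ptgs2, Hpgds, Ptgds, Ptges, Ptges2, Ptges3, Tbxas1, Abcc4 and Hpgd. All 10 were found among the 26221 rows of the authors' normalized table, and each held the same reads in the count table of 27179 genes. The libraries were bulk RNA sequencing of cells sorted from the nose of naive mice of a B6.Cg background with the transgene Tg(RP23-268L19-EGFP)2Mik (a Jackson Laboratory stock, /J), in which a bacterial artificial chromosome with Chat sequence drives enhanced green fluorescent protein (eGFP) in cholinergic cells. Brush cells, the chemosensory epithelial cells that carry the reporter, were sorted as CD45- EpCAM+ eGFP+ and split by forward and side scatter into FSClow (n = 9) and FSChi (n = 5). The other group, called EpCAM (n = 5), held CD45- EpCAM+ eGFP- epithelial cells. All 3 groups came from the same transgenic strain, with no treatment named and no age given in the labels.

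Prostanoids are lipid mediators made from arachidonic acid. Phospholipases free the acid from membranes, the cyclooxygenases encoded by Ptgs1 and Ptgs2 turn it into the shared precursor PGH2, and terminal synthases turn that precursor into PGD2, PGE2 or thromboxane. The products leave the cell partly through transporters such as the one encoded by Abcc4, act on receptors of nearby cells, and are inactivated by the dehydrogenase encoded by Hpgd. In epithelia of airway and gut, brush or tuft cells are known as sources of eicosanoids in type 2 inflammation.

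The promoter sequences of the cyclooxygenase genes and a short stretch of the Hpgds start region are shown because Ptgs1, Ptgs2 and Hpgds had the 3 highest fold changes in FSClow against EpCAM among the members. They come from RefSeq, build GRCm38.p6, and read 5′ to 3′ on the gene's strand. Those of Ptgs1 (chr2:36230176-36230425, plus strand) and Ptgs2 (chr1:150099781-150100030, plus strand) are the 250 bases before the start used in that table. The starts used for Ptgs1 and Hpgds lie inside the RefSeq intervals of these genes, so the windows searched for motifs do too. The Hpgds stretch (chr6:65144886-65144915, minus strand) holds 7 bases before the first exon of that gene in GENCODE M21 and 23 bases inside it. This stretch was cut out around the octamer ATGCAAAT, which lies inside that exon. Capitals mark the octamer in Hpgds and a GC box in Ptgs2.
Ptgs1: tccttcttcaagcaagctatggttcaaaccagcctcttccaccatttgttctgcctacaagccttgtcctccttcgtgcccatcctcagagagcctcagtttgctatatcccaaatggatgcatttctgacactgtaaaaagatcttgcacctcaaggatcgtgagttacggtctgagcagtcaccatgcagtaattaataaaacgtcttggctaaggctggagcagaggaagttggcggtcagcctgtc
Ptgs2: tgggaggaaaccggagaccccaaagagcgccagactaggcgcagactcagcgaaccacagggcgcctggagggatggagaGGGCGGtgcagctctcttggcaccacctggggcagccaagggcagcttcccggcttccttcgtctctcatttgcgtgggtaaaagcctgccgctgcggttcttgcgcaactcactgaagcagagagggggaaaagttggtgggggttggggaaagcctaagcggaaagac
Hpgds: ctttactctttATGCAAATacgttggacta
The octamer ATGCAAAT, a motif known for transcription factors with a POU domain, was searched on both strands of windows from 250 bases before to 50 bases after each start, which were on hand for all 10 members. It was in 1.74% of 32851 such windows and, among the members, in that of Hpgds. The GC box GGGCGG was in 35.7% of the windows and in those of 5 members, namely Ptgs2, Ptges, Ptges3, Abcc4 and Hpgd. TATAAA was in 13.6% of the windows and in those of Tbxas1 and Hpgd, and CACGTG was in 7.15% and in those of Ptgs2, Ptges2 and Abcc4. The CACGTG of Ptgs2 lies outside the bases shown. None of these motifs overlapped another in the sequences shown. A match is a string of letters and does not show a bound factor.

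Library totals ranged from 1348428 to 7477695 counts, and 3 counts, the limit that a count of 0 allows, correspond to 0.106 CPM over the FSClow libraries together. CPM here are counts scaled to library size with TMM factors, given as mean ± SD over libraries. The reporter sort was checked by Chat, which lay between 446 and 585 CPM in FSClow, between 182 and 432 CPM in FSChi and between 0.150 and 3.08 CPM in EpCAM. The summed level of 12 tuft or brush cell markers was 7866 to 11160 CPM in FSClow, 7706 to 13500 CPM in FSChi and 99.3 to 123 CPM in EpCAM. Epcam, the gene of the marker sorted for in all 3 groups, stood at 2809 ± 653 CPM in FSClow, 2065 ± 571 in FSChi and only 632 ± 149 in EpCAM. The sum of 5 pan-epithelial markers was 5188 to 14220 CPM, 6325 to 10610 and 1795 to 3255 in the same order. Table columns and single-library files did not match in 5 of 19 cases (3 FSChi, 2 EpCAM), always within a group where a match was found, and the FSChi 3 file was nearly empty. Tests therefore used the count table. Whether the replicates of a group are different animals is not given in the labels, and p-values therefore cover only how far these libraries differ, which could be technical variation.

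Of the 10 members, 9 passed the filter on low counts and Tbxas1 did not. Against EpCAM, 4 of the 9 were higher in FSClow (Ptgs1, Ptgs2, Hpgds and Ptges3) and 4 lower (Ptgds, Ptges, Abcc4 and Hpgd) at an edgeR adjusted p under 0.05, where 22.0% and 23.1% of 13340 tested genes were higher and lower. In FSChi, 2 were higher (Ptgs1 and Hpgds) and the same 4 as in FSClow were lower than in EpCAM, where 13.5% and 12.2% of all genes were. FSChi differed from FSClow in 4 members, of which Ptges and Hpgd were higher in FSChi and Ptgs1 and Ptgs2 lower, where 15.5% and 9.30% of all genes were. Among all genes called for FSClow against EpCAM, 48.7% were higher with TMM scaling, 38.2% with relative log expression (RLE) scaling and 45.8% on the log2(TPM + 1) scale of the single-library files without the nearly empty FSChi 3 file, or 28.3% with it. Both comparisons with EpCAM use the same EpCAM libraries. The median log2 fold change of the 9 members was -0.22 for FSClow against EpCAM, -0.03 for FSChi against EpCAM and 0.09 for FSChi against FSClow, beside 0.05, -0.02 and -0.01 over all genes. The members spanned -6.64 to 5.97 for FSClow against EpCAM. Levels in bulk samples do not tell fewer cells of a type from less RNA per cell.

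**Figure D1:**
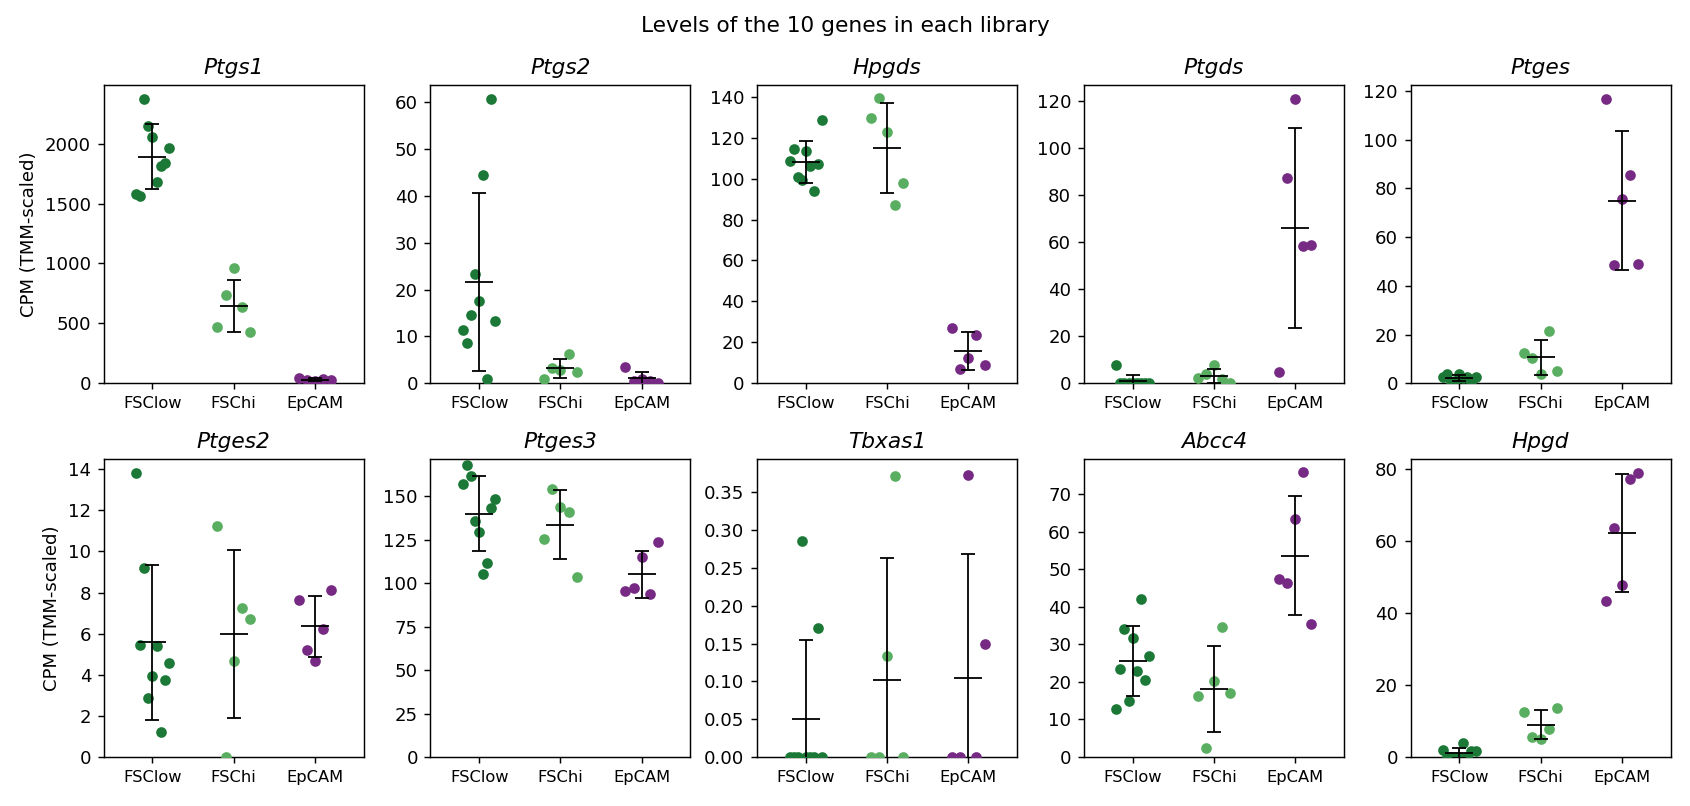
Each panel plots the TMM-scaled CPM of a member (linear axis from 0, own scale per panel) in each library of FSClow (n = 9), FSChi (n = 5) and EpCAM (n = 5); bars give mean ± SD. Ptgs1 separates all 3 groups, Hpgds spans 93.8 to 129 CPM in FSClow and 87.0 to 139 CPM in FSChi, and Ptges and Hpgd reach above 40 CPM only in EpCAM.

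Ptgs1, which encodes the cyclooxygenase that many cells make without stimulation (chr2:36216742-36258593, plus strand), was the member with the highest CPM in brush cells. Its level in FSClow ran from 1561 CPM through a median of 1837 to 2372. The FSChi libraries held 470, 740, 963, 633 and 429 CPM, and the EpCAM libraries 46.7, 25.3, 19.01, 34.1 and 25.2 CPM. No library of a group reached the range of another, and the order was FSClow, FSChi, EpCAM. The log2 fold change against EpCAM was 5.97 ± 0.29 in FSClow (SE, edgeR adjusted p = 2.5e-13) and 4.43 ± 0.28 in FSChi (edgeR adjusted p = 2.6e-11). FSChi lay below FSClow, with a log2 fold change of -1.55 ± 0.23 (edgeR adjusted p = 2.2e-05). With the nearly empty FSChi 3 file, the log2(TPM + 1) scale gave no call for FSChi against EpCAM (2.44, limma adjusted p = 0.175), and without it 4.15 (limma adjusted p = 1.41e-10). On the log2(TPM + 0.1) scale with that file the call between the gates ended too (-4.13, limma adjusted p = 0.0925). The EpCAM mean of Ptgs1 was 1.59% of the FSClow mean, beside 1.112% for the summed tuft or brush cell markers. The part of residual brush cells in the EpCAM level was not tested. Ptgs1 shares 148 exon bases with Gm43621 on the other strand, and no source states a strand setting for the counting.

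Ptgs2 (chr1:150100031-150108234, plus strand), the cyclooxygenase gene known to be induced by stimuli, was low and uneven. Its level in FSClow ran from 0.802 CPM in replicate 7 through a median of 14.6 to 60.7 CPM in replicate 8. In FSChi it stood at 0.936, 3.20, 2.81, 6.32 and 2.47 CPM, and in EpCAM at 3.52, 0.473, 0.932, 0.465 and 0 CPM. The ranges overlapped between all groups, although 8 of 9 FSClow libraries lay above the highest FSChi library. Ptgs2 was higher in FSClow than in EpCAM by 4.35 ± 0.82 on the log2 scale (edgeR adjusted p = 0.00014). Leaving out EpCAM replicate 1 raised this to 5.42. For FSChi against EpCAM the log2 fold change of 1.58 ± 0.87 missed the threshold (edgeR adjusted p = 0.20), but passed it at 2.69 once EpCAM replicate 1 was left out (edgeR adjusted p = 0.0463). FSChi was lower than FSClow, with a log2 fold change of -2.77 ± 0.75 (edgeR adjusted p = 0.0087), a call that ended at -3.63 when only libraries whose column matched their own file were used (edgeR adjusted p = 0.0658).

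Of the PGD2 synthases, Hpgds was high in brush cells and Ptgds in the eGFP- epithelium. Hpgds (chr6:65117293-65144981, minus strand), the glutathione-dependent synthase first known from blood cells, ran from 93.8 CPM through a median of 107 to 129 CPM in FSClow. The FSChi libraries held 130, 139, 123, 87.0 and 97.7 CPM, and the EpCAM libraries 27.2, 6.86, 12.1, 23.6 and 8.85 CPM. Every eGFP+ library lay above every EpCAM library, and the FSClow and FSChi ranges overlapped. The log2 fold change against EpCAM was 2.78 ± 0.27 in FSClow (edgeR adjusted p = 1.1e-08) and 2.87 ± 0.29 in FSChi (edgeR adjusted p = 5.5e-08). The FSChi value on the log2(TPM + 1) scale was 1.62 with the nearly empty FSChi 3 file (limma adjusted p = 0.208) and 2.84 without it (limma adjusted p = 1.25e-05). Between the brush cell gates it was 0.09 ± 0.23 (edgeR adjusted p = 0.82), which does not show that the gates are equal. The EpCAM mean of Hpgds was 14.5% of the FSClow mean, against 1.112% for the summed brush cell markers.

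Ptgds (chr2:25466709-25470110, minus strand) encodes the lipocalin-type PGD2 synthase. It had 1808 counts in EpCAM and 16 in FSClow, all of them in replicate 1 (7.90 CPM), with 0 in the other 8 libraries. EpCAM libraries held 4.89, 87.3, 121, 58.3 and 58.6 CPM, with replicate 1 far below the rest, and FSChi libraries 2.34, 3.999, 7.76, 1.86 and 0 CPM. The ranges of FSClow and EpCAM overlapped through FSClow replicate 1 and EpCAM replicate 1 alone. The log2 fold change against EpCAM was -6.64 ± 0.99 in FSClow (edgeR adjusted p = 1.4e-05). Without FSClow replicate 1 the gene was at least 567-fold lower in FSClow, set against 3 counts over the remaining 8 libraries. In FSChi it was -4.29 ± 1.03 (edgeR adjusted p = 0.0045), or -5.17 without FSChi replicate 3, and the call ended at -4.50 with DESeq2 (adjusted p = 0.0545) and at -4.78 in libraries whose column matched their own file (edgeR adjusted p = 0.051). FSChi against FSClow gave 2.35 ± 1.12 (edgeR adjusted p = 0.13). Without FSClow replicate 1 it was called (edgeR adjusted p = 0.00852), with 83 counts in FSChi and 0 in FSClow, at least 34.2-fold higher in FSChi by the same floor.

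**Figure D2:**
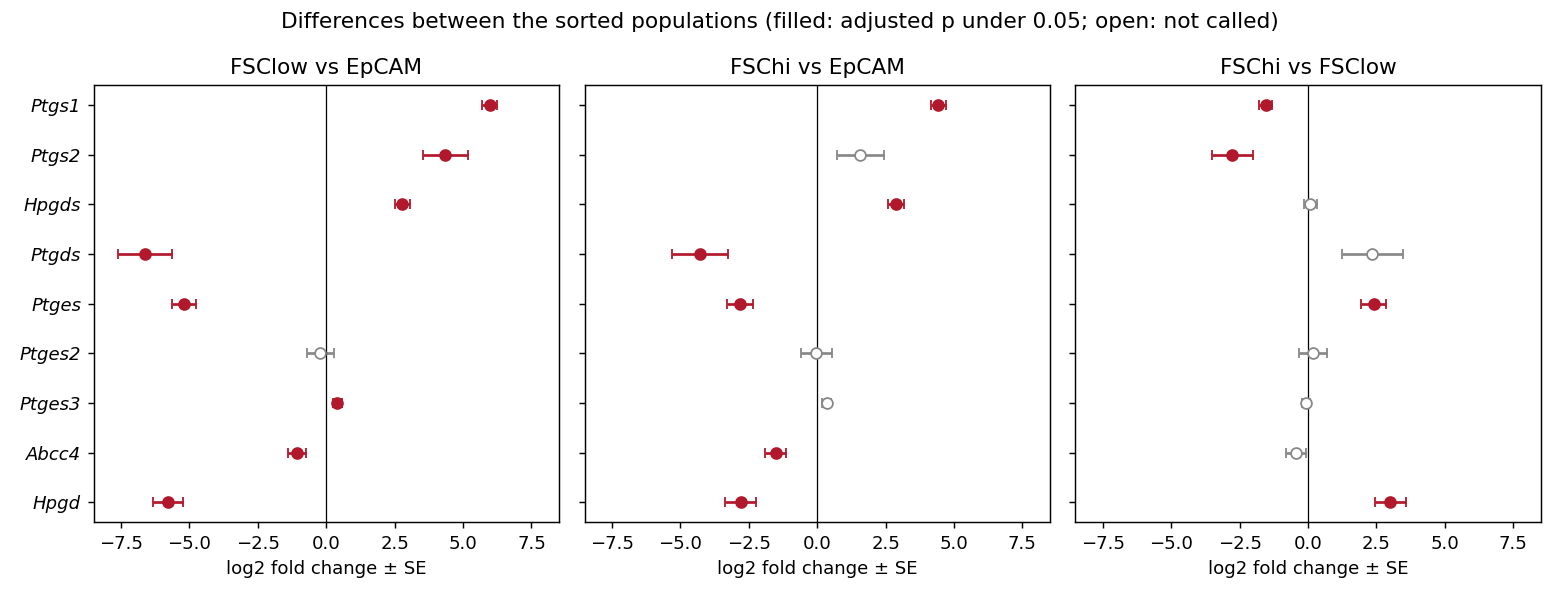
Points give the log2 fold change of each tested member in the 3 comparisons, with its SE as a bar; filled points have an edgeR adjusted p under 0.05 over all genes and open points do not. Ptgs1, Ptgs2 and Hpgds lie to the right of 0 in FSClow against EpCAM, at 5.97, 4.35 and 2.78, and Ptgds, Ptges and Hpgd far to the left, at -6.64, -5.21 and -5.79.

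The PGE2 synthases did not move together. Ptges (chr2:30889471-30931020, minus strand), the microsomal synthase known to be induced with Ptgs2 in inflammation, ran from 0.341 CPM through a median of 2.41 to 3.93 CPM in FSClow. FSChi libraries held 12.4, 10.4, 3.75, 21.6 and 4.94 CPM, and EpCAM libraries 117, 48.5, 75.7, 85.3 and 48.9 CPM. Every EpCAM library lay above every eGFP+ library, and FSChi reached into the FSClow range through replicate 3. Against EpCAM the log2 fold change was -5.21 ± 0.44 in FSClow (edgeR adjusted p = 1.0e-09) and -2.81 ± 0.47 in FSChi (edgeR adjusted p = 9.0e-05). Over 33 alternatives the FSClow value ran from -9.16 to -5.01, with the call kept in all. FSChi was higher than FSClow by 2.4 ± 0.45 (edgeR adjusted p = 0.00033), a call that ended at 3.06 on the log2(TPM + 0.1) scale with the nearly empty FSChi 3 file (limma adjusted p = 0.0584).

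Ptges3 (chr10:128058982-128077254, plus strand), the cytosolic synthase that is also the co-chaperone p23 of Hsp90, was abundant everywhere. It ran from 105 CPM through a median of 143 to 168 CPM in FSClow. FSChi libraries held 125, 154, 144, 141 and 103 CPM, and EpCAM libraries 95.2, 97.5, 115, 93.5 and 124 CPM. The 3 groups overlapped. The log2 fold change of 0.41 ± 0.15 for FSClow against EpCAM was called (edgeR adjusted p = 0.032), but 24 of 33 alternatives ended that call, RLE scaling among them (0.23, edgeR adjusted p = 0.253). The value stayed between 0.18 and 0.51 in all 33. Ptges2 (chr2:32395890-32402740, plus strand), a membrane-associated synthase, stood at 5.57 ± 3.79 CPM in FSClow, 5.97 ± 4.10 in FSChi and 6.36 ± 1.49 in EpCAM, and passed the test in none of the comparisons (edgeR adjusted p = 0.76, 0.98 and 0.83).

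Tbxas1 (chr6:38864159-39084590, plus strand), which encodes thromboxane A synthase and is best known in platelets and macrophages, was at the limit of detection. It had 2 counts over the 9 FSClow libraries, 3 over the 5 FSChi libraries and 3 over the 5 EpCAM libraries. Its highest value in any library was 0.373 CPM. No difference was detectable at this depth, and no test was made. Tbxas1 also shares 144 exon bases with the antisense gene Gm42962.

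The exporter gene Abcc4 and the inactivation gene Hpgd were lower in brush cells. Abcc4 (chr14:118482692-118707856, minus strand), the multidrug resistance transporter MRP4 that exports prostaglandins and other anions, ran from 12.8 CPM through a median of 23.4 to 42.1 CPM in FSClow. FSChi libraries held 16.2, 2.399, 20.3, 34.6 and 16.9 CPM, and EpCAM libraries 47.5, 46.4, 63.4, 75.9 and 35.4 CPM. The highest FSChi library lay just under the lowest EpCAM library, and FSClow overlapped both groups. Abcc4 had a log2 fold change of -1.08 ± 0.33 in FSClow against EpCAM (edgeR adjusted p = 0.0091) and of -1.52 ± 0.39 in FSChi (edgeR adjusted p = 0.0055), with no call between the gates (edgeR adjusted p = 0.38). The FSClow call ended at -0.99 on the log2(TPM + 1) scale with and without the nearly empty FSChi 3 file (limma adjusted p = 0.173 and 0.0584), and at -1.12 on the log2(TPM + 0.1) scale with it (limma adjusted p = 0.556).

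Hpgd (chr8:56294552-56321046, plus strand), the dehydrogenase that starts the breakdown of prostaglandins, was nearly absent from FSClow. Of the 9 FSClow libraries, 4 held any count, and the highest was replicate 6 at 3.92 CPM. FSChi libraries held 12.6, 5.60, 4.95, 7.81 and 13.8 CPM, and EpCAM libraries 43.4, 63.7, 47.9, 77.4 and 79.0 CPM. The 3 groups did not overlap, in the order EpCAM, FSChi, FSClow. The log2 fold change against EpCAM was -5.79 ± 0.55 in FSClow (edgeR adjusted p = 7.3e-09), or -6.45 without FSClow replicate 6, and -2.79 ± 0.56 in FSChi (edgeR adjusted p = 0.00073). FSChi was higher than FSClow by 3.01 ± 0.57 (edgeR adjusted p = 0.00036), or by 3.61 without FSClow replicate 6. The FSChi call against EpCAM ended at -2.85 in libraries whose column matched their own file (edgeR adjusted p = 0.0607). The call between the gates ended at 2.85 on the log2(TPM + 0.1) scale with the nearly empty FSChi 3 file (limma adjusted p = 0.103).

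Levels of different genes can be compared only per length, for which the authors' TPM values of the single-library files were used, without the nearly empty FSChi 3 file. In TPM, Ptgs1 stood at 1312 ± 356 in FSClow (n = 9), 392 ± 142 in FSChi (n = 4) and 20.9 ± 6.62 in EpCAM (n = 5), and Ptgs2 at 7.63 ± 7.55, 0.858 ± 0.698 and 0.286 ± 0.385. Ptgs1 made up 98.2% to 99.98% of the summed TPM of both cyclooxygenases in FSClow, 99.5% to 99.9% in FSChi and 97.1% to 100% in EpCAM. The make-up of the cyclooxygenases by this measure was thus almost all Ptgs1 in each group, although the levels differed widely.

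The PGD2 synthases changed places in the same measure. Hpgds made up 100% of the summed TPM of Hpgds and Ptgds in 8 of 9 FSClow files and 78.5% in the remaining file, and 70.6% to 93.8% in FSChi. In EpCAM its share was 1.49% to 54.2%, with a median of 2.88%. The ranges of the brush cell gates lay above that of EpCAM. Hpgds stood at 79.9 ± 16.1 TPM in FSClow and 9.98 ± 6.49 in EpCAM, and Ptgds at 1.49 ± 4.47 TPM and 177 ± 119.

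Ptges3 made up most of the summed TPM of the PGE2 synthases in every file. Its share was 93.8% to 99.7% in FSClow, 89.5% to 100% in FSChi and 68.3% to 83.6% in EpCAM. The share of Ptges was at most 0.105% in FSClow and 7.60% in FSChi, and 13.9% to 28.5% in EpCAM. TPM and counts differ for this gene. Ptges had 53 counts in FSClow, with some in all 9 libraries, but a median TPM of 0 there. FSChi replicate 2 held 13 counts and a TPM of 0. How low the share of Ptges is in brush cells thus depends on the measure. In CPM, too, Ptges was lower in every eGFP+ library than in any EpCAM library.

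**Figure D3:**
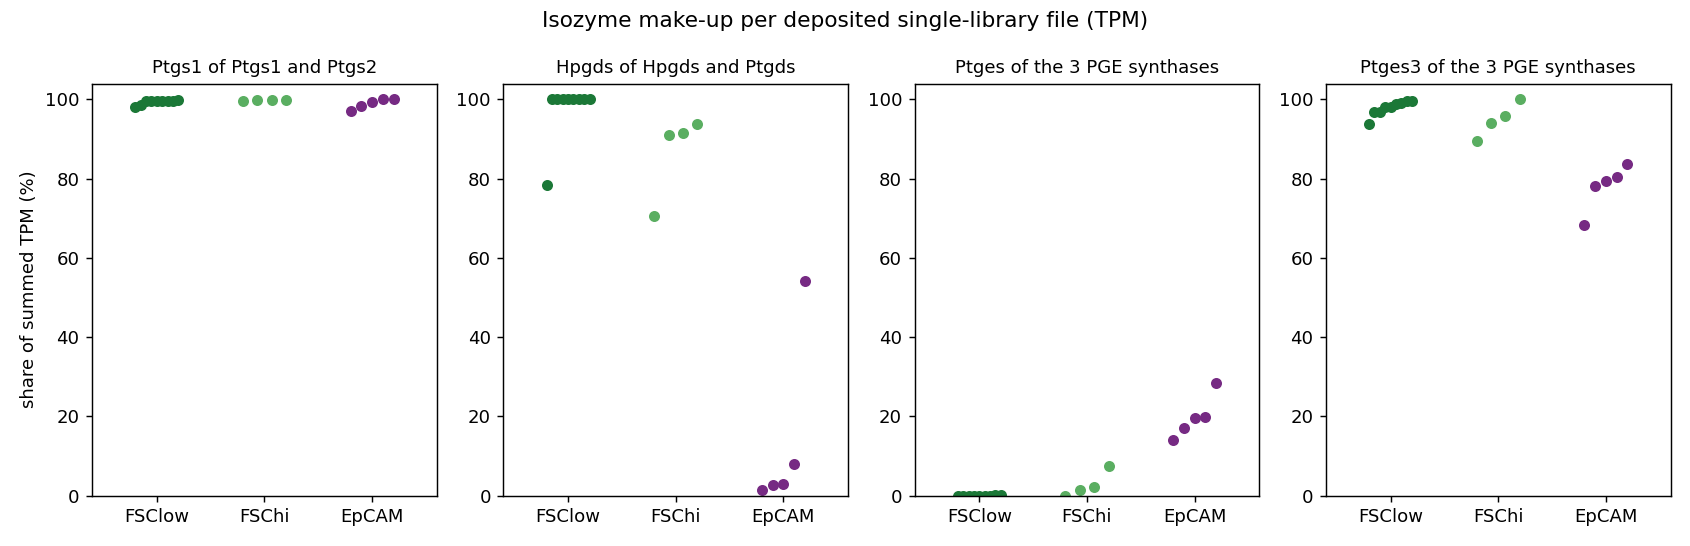
Points give, for each single-library file, the share (%) of the named gene in the summed TPM of its isozymes, in FSClow (9 files), FSChi (4 files) and EpCAM (5 files), ordered by value within a group. Ptgs1 lies above 97% everywhere, whereas Hpgds lies above 70% in brush cells and at or below 54.2% in EpCAM.

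The members that were higher in FSChi than in FSClow were those highest in EpCAM, and markers of eGFP- cell types moved the same way. As a share of the EpCAM mean, Ptges stood at 2.77% in FSClow and 14.1% in FSChi, Hpgd at 1.67% and 14.4%, and Ptgds at 1.33% and 4.84%. Abcc4 went the other way, at 47.5% in FSClow and 33.7% in FSChi. The summed level of 9 olfactory sensory neuron markers was 65.0 to 274 CPM in FSClow, 237 to 3876 in FSChi and 3232 to 5928 in EpCAM, and all 9 were called higher in FSChi than in FSClow, where 15.5% of all genes were. In FSChi against EpCAM, 4 of these 9 were called lower and 1 higher, so not all of them mark eGFP- cells alone. That of 7 basal cell markers was 12.8 to 118 CPM, 68.1 to 1740 and 1497 to 4708, with 6 of 7 called higher in FSChi. That of 7 sustentacular cell markers was 236 to 693 CPM, 426 to 3903 and 4618 to 8274, with 4 of 7 called. That of 8 secretory and gland cell markers was 24.2 to 279 CPM, 438 to 13100 and 7172 to 34630, with 4 of 6 tested called. No marker of these 4 lists was at 0 in any group. The part of such cells in the FSChi levels of Ptges, Hpgd and Ptgds was not tested.

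**Figure D4:**
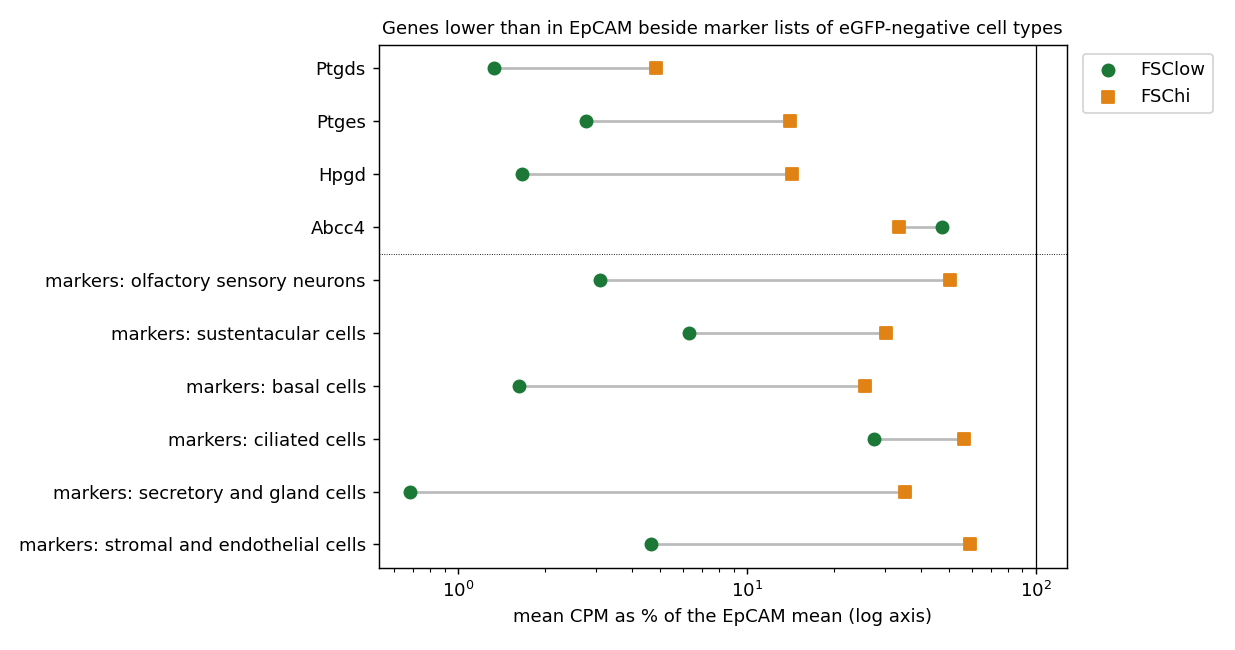
The mean CPM of the 4 members lower than in EpCAM, and of the summed markers of 6 eGFP- cell types, is given as a percentage of the EpCAM mean (log axis) for FSClow (circles) and FSChi (squares). FSChi lies to the right of FSClow for Ptges (14.1% against 2.77%), Hpgd, Ptgds and all 6 marker lists, and to the left for Abcc4.

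Blood cells that are known for Ptgs1, Hpgds or Tbxas1 were looked for by their markers. Of 8 mast cell markers, 2 were at 0 in FSClow (Fcer1a and Ms4a2), 6 in FSChi and 6 in EpCAM, and the summed level was 0.802 to 5.61 CPM in FSClow, 6.56 to 23.6 CPM in FSChi and 15.0 to 22.8 CPM in EpCAM, of which Hdc, an enzyme gene also known outside mast cells, had a mean of 2.68, 13.2 and 20.2 CPM. Of 6 platelet markers, 1, 2 and 1 were at 0, with sums of 0.340 to 3.93 CPM, 0 to 6.32 CPM and 6.83 to 21.2 CPM. Of 8 macrophage and dendritic cell markers, none was at 0 in FSClow, 2 in FSChi (Adgre1 and Itgax) and 2 in EpCAM (Adgre1 and C1qb), with sums of 3.93 to 34.9 CPM, 20.8 to 595 CPM and 419 to 3328 CPM. Only 2 of the 8 passed the filter on low counts. These sums include Lyz2, which is also in the list of secretory and gland cell markers, so they are not a measure of macrophages alone. Of 6 general leukocyte markers, 3, 2 and 3 were at 0, and the sums of 5.78 to 32.8 CPM in FSClow and 2.97 to 19.5 CPM in FSChi exceeded the 0.586 to 3.55 CPM of EpCAM. Ptprc, which encodes CD45, was the 1 gene of this list that was tested, with 396 counts in FSClow, 181 in FSChi and 0 in EpCAM, and was called higher in both gates (edgeR adjusted p = 7.6e-07 and 1.8e-05). The part of leukocytes in the levels of Ptgs1 and Hpgds was not tested.

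Among the genes listed for arachidonic acid release, the phospholipase genes Pla2g4a, Pla2g7 and Plaat3 were higher in brush cells. Of 27 listed genes of arachidonic acid release, 15 were tested, and against EpCAM 6 were higher and 3 lower in FSClow and 4 higher and none lower in FSChi. The medians were -0.09 and 0.43 on the log2 scale, beside 0.05 and -0.02 over all genes. Of all tested genes, 22.0% were higher and 23.1% lower in FSClow, and 13.5% and 12.2% in FSChi. Pla2g4a, the calcium-activated cytosolic phospholipase that frees arachidonic acid, was at 392 ± 165 CPM in FSClow, 140 ± 104.3 in FSChi and 7.80 ± 3.44 in EpCAM, higher by 5.64 ± 0.49 and 4.15 ± 0.47 on the log2 scale (edgeR adjusted p = 2.4e-09 and 4.9e-07). Like Ptgs1 it was lower in FSChi than in FSClow, with a log2 fold change of -1.48 ± 0.38 (edgeR adjusted p = 0.0063). Pla2g7, which cleaves platelet-activating factor and oxidised phospholipids, was higher than in EpCAM by 5.30 ± 0.44 in FSClow and 3.60 ± 0.42 in FSChi. Plaat3, a phospholipase and acyltransferase, was higher by 3.40 ± 0.22 and 3.33 ± 0.23.

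Mgll differed between the gates. Mgll, the lipase that releases arachidonic acid from 2-arachidonoylglycerol, was at 8.36 ± 5.45 CPM in FSClow, 120 ± 102 in FSChi and 27.3 ± 4.96 in EpCAM. It was lower than EpCAM in FSClow, with a log2 fold change of -1.75 ± 0.45, and higher in FSChi by 2.13 ± 0.51 (edgeR adjusted p = 0.0029 and 0.0038). The gates differed by 3.88 ± 0.46 on the log2 scale (edgeR adjusted p = 1.8e-06). Dagla, which makes that lipid, had a log2 fold change of -4.56 ± 0.62 in FSClow against EpCAM (edgeR adjusted p = 1.7e-06). Daglb, the other gene that makes that lipid, was higher in FSClow than in EpCAM by 1.29 ± 0.35 (edgeR adjusted p = 0.004), with no call between the gates (edgeR adjusted p = 0.071). Abhd6, another lipase of that lipid, was not called between the gates either (edgeR adjusted p = 0.053). Daglb and Abhd6 are named after their values were seen.

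Other enzymes that make or reduce prostanoids were mostly lower in FSClow. Of 12 listed, 9 were tested, and 7 were lower and none higher than in EpCAM (median -2.31 on the log2 scale), whereas in FSChi 3 were lower and 1 higher (median -1.01). Over all genes 23.1% were lower and 22.0% higher in FSClow, and 12.2% and 13.5% in FSChi (medians 0.05 and -0.02). Cbr2, a carbonyl reductase that is also a sustentacular cell marker, was at 43.2 ± 26.8 CPM in FSClow, 382 ± 241 in FSChi and 2148 ± 322 in EpCAM, and Prxl2b, a prostamide and prostaglandin F synthase, at 1.18 ± 1.16, 55.3 ± 44.7 and 140 ± 32.4. Akr1c18 had a log2 fold change of -7.30 ± 0.82 in FSClow against EpCAM and Gstm2 of -2.91 ± 0.21 (edgeR adjusted p = 1.3e-07 and 6.7e-11). In FSChi against FSClow 6 of the 9 were higher, where 15.5% of all genes were. Among the 6 was Prxl2b, higher by 5.70 ± 0.65 (edgeR adjusted p = 2.2e-06). Gstm2 and Gstm3 belong to a family of similar genes, whose reads may be shared.

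Transport and inactivation genes split. Of 14 listed, Abcc4 and Hpgd included, 11 were tested. Against EpCAM, 5 were higher and 5 lower in FSClow, and 3 higher and 4 lower in FSChi. Calls over the whole tested set went up for 22.0% and down for 23.1% in FSClow. In FSChi these shares were 13.5% and 12.2%. The medians of the list were 0.06 and -0.67 on the log2 scale, where the whole set had 0.05 and -0.02. The FSClow median of the list stays at 0.06 with Slco2a1 at its bound. Slco2a1, the prostaglandin uptake transporter, had 222 counts in EpCAM and 0 in FSClow, where it was at least 75.0-fold lower, set against 3 counts over all FSClow libraries. Ptgr1, a prostaglandin reductase, had a log2 fold change of -5.01 ± 0.74 in FSClow (edgeR adjusted p = 5.0e-06), whereas Ptgr2, another reductase, was higher by 2.19 ± 0.35 in FSClow and 1.14 ± 0.37 in FSChi (edgeR adjusted p = 1.3e-05 and 0.025). The transporter genes Slco4a1 and Slco3a1 were higher in FSClow by 2.67 ± 0.24 and 2.00 ± 0.29 and in FSChi by 2.25 ± 0.26 and 1.72 ± 0.32. Abcc1, an exporter of leukotriene C4 among other conjugates, had log2 fold changes of -2.38 ± 0.31 in FSClow and -1.35 ± 0.36 in FSChi (edgeR adjusted p = 7.7e-07 and 0.0077).

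Receptor genes were low in all groups. Of 11 listed, 4 passed the filter, and only Ptgdr among them was called, lower in brush cells. Over all genes 23.1% were lower in FSClow and 12.2% in FSChi. Ptgdr, a PGD2 receptor, stood at 5.47, 5.21, 12.3, 10.5 and 4.65 CPM in EpCAM, had no count in 7 of 9 FSClow libraries and 3 of 5 FSChi libraries, and reached at most 2.50 CPM there. Its log2 fold change against EpCAM was -4.55 ± 0.85 in FSClow and -4.15 ± 1.0 in FSChi (edgeR adjusted p = 9.9e-05 and 0.0036). Ptger1, a PGE2 receptor, was at 6.39 ± 3.18 CPM in FSClow, 6.84 ± 0.733 in FSChi and 5.59 ± 1.36 in EpCAM, with no call against EpCAM (edgeR adjusted p = 0.73 and 0.67). Ptger4, another PGE2 receptor, was uneven in FSClow, from 0 to 9.94 CPM, and the nuclear receptor Ppard was at 2.96 ± 1.88 CPM in FSClow and 3.55 ± 2.36 in EpCAM, neither passing the test (edgeR adjusted p = 0.88 and 0.73).

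Among receptors that were not tested, Ptger2 had 186 counts in EpCAM, 31 in FSChi and 0 in FSClow, where it was at least 62.9-fold lower, again set against 3 counts over the group. Ptgir, the prostacyclin receptor, had 88, 5 and 0 counts in the same order and was at least 29.7-fold lower in FSClow. Ptgdr2, the receptor through which PGD2 attracts type 2 leukocytes, had 2 counts in FSClow, 4 in FSChi and 3 in EpCAM, and Tbxa2r, the thromboxane receptor, had 1, 2 and 6. Ptgdr2 and Tbxa2r were near the limit of detection in every group. Pparg, a nuclear receptor for prostaglandin metabolites, had 28, 42 and 13 counts in FSClow, FSChi and EpCAM, Ptger3, a PGE2 receptor, 25, 11 and 96, and Ptgfr, the PGF2 alpha receptor, 1, 4 and 11.

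Genes of the leukotriene and other lipoxygenase pathways, which use the same arachidonic acid, were called in both directions. The list also holds leukotriene receptors. Of 20 listed, 10 were tested, with 3 higher and 5 lower in FSClow than in EpCAM. In FSChi, 3 were higher and 1 lower. The medians were -0.19 and -0.42, and those of the whole tested set 0.05 and -0.02. Among the 13340 tested genes, FSClow had higher calls for 22.0% and lower calls for 23.1%. FSChi had them for 13.5% and 12.2%. The 3 higher genes were Ltc4s, Alox5 and Alox5ap in both gates. Ltc4s had log2 fold changes against EpCAM of 8.76 ± 0.41 in FSClow and 9.19 ± 0.42 in FSChi (edgeR adjusted p = 1.6e-13 in each). Those of Alox5 were 8.87 ± 0.43 and 8.26 ± 0.43 (edgeR adjusted p = 2.5e-13 and 1.2e-12). Those of Alox5ap were 9.99 ± 0.58 and 8.95 ± 0.57 (edgeR adjusted p = 3.7e-12 and 3.3e-11). Alox5ap, the membrane protein that presents arachidonic acid to the lipoxygenase, stood at 1214 ± 466.2 CPM in FSClow, 590 ± 211 in FSChi and 1.15 ± 0.904 in EpCAM. It was lower in FSChi than in FSClow, with a log2 fold change of -1.04 ± 0.36 (edgeR adjusted p = 0.036). Alox12, a platelet and epithelial lipoxygenase, had log2 fold changes against EpCAM of -5.36 ± 0.75 in FSClow and -2.73 ± 0.77 in FSChi (edgeR adjusted p = 2.7e-06 and 0.011).

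**Figure D5:**
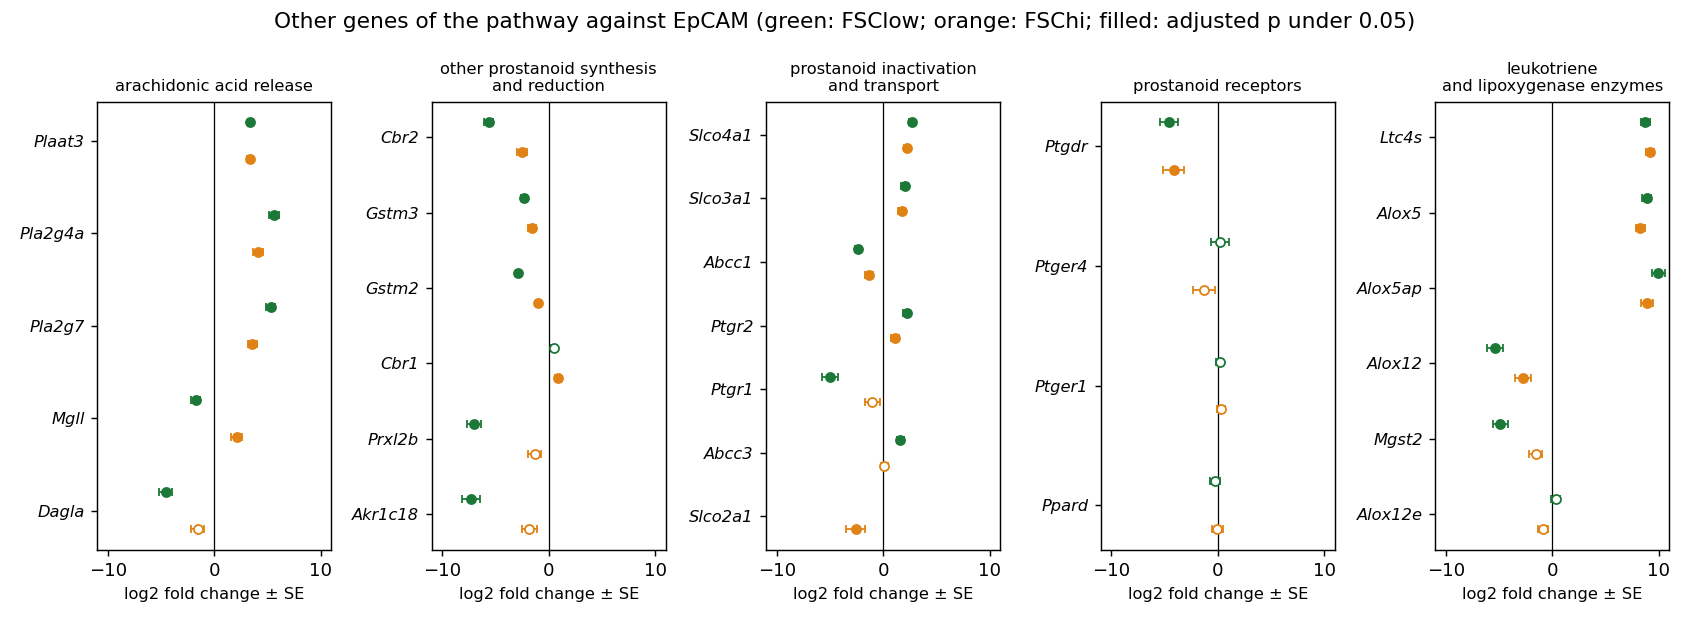
Points give log2 fold changes ± SE against EpCAM of the pathway genes with the smallest p in each list, for FSClow (green) and FSChi (orange), filled where the edgeR adjusted p is under 0.05. Slco2a1 has no FSClow point because it had no count there. Pla2g4a, Pla2g7 and Plaat3 lie to the right in both gates, while Mgll lies at -1.75 in FSClow and at 2.13 in FSChi.

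The genes most like each of 3 members were taken by the Pearson correlation of log2(CPM + 1) over the 19 libraries, which fall into groups far apart, so that these values mostly describe the groups. For Ptgs1 these were Il17rb (r = 0.991), Smoc1, Sh2d7, Gas7 and Chdh (r = 0.986). Within groups, after group means were taken out, r with Ptgs1 was 0.304 for Gas7 and 0.766 for Sh2d7. For Hpgds they included Rgs13 (r = 0.978), Dnaaf3, Ltc4s and Rgs14 (r = 0.966). For Ptgs2 they included Kif18a (r = 0.882), Srsf3, Clk1 and Hmgcs1 (r = 0.872). The libraries share their depth and sort, and no test is given.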

How the data were processed

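The submitters' processing notes list DESeq2, featureCounts, RSEM 1.2.21, STAR 2.4.2a, Picard 1.1073 and mm10, and state neither their roles nor a strand setting. One deposited table holds raw counts per Entrez gene. The normalized table deposited by the authors is a signal: the counts over a factor per library (100% of values came out whole within 0.01). Each library also has a deposited RSEM file with expected counts, rounded here before use, and TPM, per the file headers. Symbols came from RefSeq for 25275 identifiers and from identical rows of the normalized table for 437; 1467 stayed unnamed (1.15% of counts).

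Counts of all 19 libraries were fitted with edgeR 4.0.16 in R 4.3.3 (filterByExpr by group, TMM scaling, quasi-likelihood test, robust, with no covariate beside group), and p-values were adjusted by Benjamini-Hochberg over 13340 genes, with calls under 0.05. SE came from the F statistic. Likeness used log2(CPM + 1), and some of the most alike genes are not reported here. Recovered reads from the normalized table called 5857 genes for FSClow against EpCAM, 3376 for FSChi against EpCAM and 3264 between the gates. Alternatives covered scaling, filters, DESeq2 1.42.0, limma 3.58.1, RSEM and TPM values, leaving out libraries and a replicate block. No sequencing batch or date is labelled. Named pathway genes are up to 4 per list and comparison with the smallest p, plus each receptor that passed the filter. The members and lists were chosen with earlier results of these data known. Floors of 3 counts cover counting error only.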

Additional observations from a re-analysis of the deposited data

Results flagged for a closer look

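Of 30 sets of libraries (10 genes in 3 groups), 3 held a library set apart from the rest by a gap larger than chance gives in about 1 in 20 sets. In EpCAM, Ptgs2 was at 3.52 CPM in replicate 1, with the next library at 0.932 CPM. In FSClow, Ptgds was at 7.90 CPM in replicate 1 and at 0 in the other 8 libraries. In FSClow, Hpgd was at 3.92 CPM in replicate 6, with the next library at 1.97 CPM. Their effect on each fold change is given with the gene.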

How the results depend on the processing

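Over 27 member results and 890 alternative values, 825 kept direction and call, 39 lost the call, 5 gained it and 21 turned, all 21 for Hpgds, Ptges2 or Ptges3 at values that passed no test. The 39 losses include 24 for Ptges3 in FSClow. With group means taken out, same-numbered libraries of different groups had r from -0.213 to 0.443, over 0.1 in 3 of 15 pairs. Such values cannot show whether the samples are paired. The replicate block changed no member's call, with 4 higher and 4 lower for FSClow and 2 and 4 for FSChi against EpCAM. It gave 1982 genes called in all for FSChi against FSClow in place of 3310, and put Ptges2 at 0.03 for FSClow against EpCAM and -0.24 for FSChi against FSClow.

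On the log2(TPM + 0.1) scale, which includes the nearly empty FSChi 3 file, 2138, 1586 and 395 genes were called for FSClow and FSChi against EpCAM and for FSChi against FSClow, and 2, 0 and 1 members were higher, with 1 lower in FSChi than FSClow. Between the gates the higher member was then Ptgds (4.32, limma adjusted p = 0.0377), while Ptges, Hpgd and Ptgs1 lost their calls. Hpgds in FSClow missed the threshold there at 3.24 (limma adjusted p = 0.0543). Ptges3 was at -1.89 for FSChi against EpCAM, and Hpgds at -2.12 and Ptges2 at -1.41 for FSChi against FSClow. On the log2(TPM + 1) scale 2878 genes were called for FSClow against EpCAM and 1172 between the gates, no member was higher in FSChi than EpCAM, and the same 3 values were -1.23, -1.46 and -0.43. Without that file, an alternative added after seeing the data, 5043 genes were called for FSClow against EpCAM and 1931 between the gates, 2 members were higher in FSChi than EpCAM, and Hpgds was at -0.25 and Ptges2 at -0.01 between the gates. RSEM counts put Hpgds at -0.02, and, without that file, Ptges3 at 0.10 between the gates. The authors' normalized values put Ptges2 at -0.26 and Ptges3 at 0.00 there.

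With only libraries whose column matched their own file, 1833 genes were called for FSChi against EpCAM in place of 3421 and 1750 between the gates, 2 members were lower in FSChi than EpCAM in place of 4 and 1 lower in FSChi than FSClow in place of 2, and Ptges3 was at 0.03 between the gates. This fit has fewer samples. Fits of the compared groups alone called 2106 genes between the gates and put Ptges2 at 0.01 for FSChi against EpCAM. Leaving out each library gave Ptges2 from -0.42 to 0.24 for FSChi against EpCAM and from -0.12 to 0.50 between the gates, and Ptges3 from -0.13 to 0.04 there. RLE scaling moved the median of all genes from 0.05 to -0.139 for FSClow and from -0.02 to -0.14 for FSChi against EpCAM, with shares of higher calls of 38.2% and 42.8% in place of 48.7% and 52.5%. DESeq2 gave 39.3% and 43.2%. Other causes of these changes were not tested. Depth limits Ptgds, with 16 counts over FSClow, and Hpgd, with 32.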

Other observations

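The uneven Ptgs2 levels of the 9 FSClow libraries were set beside 2 measures chosen after these levels were seen. The summed level of 14 early response genes, which cell handling is known to induce, ran from 2841 CPM in replicate 7, which also had the lowest Ptgs2, to 36290 CPM in replicate 1, where Ptgs2 was at 11.3 CPM. In replicate 8, with the highest Ptgs2, the sum was 11280 CPM. On the log2 scale Pearson's r was 0.418 (exact permutation p = 0.244, adjusted over both measures 0.244) and Spearman's rho -0.20 (exact permutation p = 0.613, adjusted 0.613), and r was -0.612 without the 2 libraries farthest from the median. With the total count of the library, r was 0.703 (exact permutation p = 0.0413, adjusted 0.0826), rho 0.633 (exact permutation p = 0.0760, adjusted 0.152) and r 0.397 without the 2 farthest libraries. Neither adjusted p for the total count passes 0.05.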
